A study of Mus musculus with 15 samples.

Results

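Sympathetic neuroblasts make noradrenaline, and 10 genes that make, load, take up or break down this and related transmitters were examined in mouse tumors: *Th*, *Gch1*, *Ddc*, *Dbh*, *Cyb561*, *Slc18a1*, *Slc18a2*, *Slc6a2*, *Slc6a4* and *Maoa*. They were chosen by name as the monoamine synthesis, storage, uptake and breakdown genes, and are 10 of the 23329 genes counted. Poly(A) RNA was sequenced from 15 tumors of 15 mice to ask how tumor transcriptomes differ without the protease caspase-2. Tumors without the *-/-* label carried wild type *Casp2*. Neuroblastomas came from paraspinal thoracic sites of Sv129/C57BL6 mice, 4 of them *Th-MYCN* and 4 *Th-MYCN/Casp2-/-*. The lymphomas, 4 *EμMyc* and 3 *EμMyc/Casp2-/-*, were taken from the cervical nodes of C57BL/6 mice. All neuroblastomas carried a *MYCN* transgene driven by the *Th* promoter, so the tumors arise in cells that can use that promoter, and those sequenced had been picked for absent or reduced vascularization. All lymphomas carried *Myc* under the immunoglobulin heavy chain enhancer, which acts in B cells. Tumor onset was at 21, 13, 10 and 15 weeks in the *Th-MYCN* tumors MYCN175, MYCN235, MYCN332 and MYCN391, and at 15, 18, 24 and 15 weeks in the *Th-MYCN/Casp2-/-* tumors MYCNC2ko118, MYCNC2ko144, MYCNC2ko176 and MYCNC2ko180. Values of the neuroblastomas are given below in this order. Onset of the lymphomas was at 13 to 19 weeks in *EμMyc* and at 8 to 12 weeks in *EμMyc/Casp2-/-* mice.

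Catecholamines are made from tyrosine in a chain of steps. Tyrosine hydroxylase forms L-DOPA and needs tetrahydrobiopterin as cofactor, aromatic L-amino acid decarboxylase turns L-DOPA into dopamine, and vesicular transporters carry dopamine into granules, where dopamine beta-hydroxylase forms noradrenaline with ascorbate as electron donor. After release the transmitter is taken back by plasma membrane transporters and then reloaded or oxidized by monoamine oxidase. In neuroblastoma this pathway is the source of the catecholamine metabolites measured in diagnosis.

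The gene counts held 4940464 to 17638029 reads per tumor (second strand counts), with the fewest in a lymphoma, EuMycC2ko215. Levels are counts per 1000000 reads (CPM) after TMM scaling (factors 0.962 to 1.04), so that 3 reads correspond to 0.173 to 0.586 CPM depending on the tumor. A gene was called where the edgeR likelihood ratio test gave a false discovery rate (FDR) below 0.05 over the 14880 genes tested and the fold change exceeded 2. All 10 genes passed the filter on low counts (above 1 CPM in at least 3 tumors), but *Slc6a4* did so only through 3 *Th-MYCN* tumors and was therefore bound to be higher there. The summed CPM of 9 sympathetic neuroblast markers ran from 4013 to 6054 in *Th-MYCN* and from 4775 to 5641 in *Th-MYCN/Casp2-/-* tumors, against 7.43 to 34.0 in the lymphomas. The targeted gene, *Casp2*, was at 125, 93.3, 76.0 and 106 CPM in the *Th-MYCN* tumors and at 80.2, 57.7, 39.6 and 54.5 CPM in the *Th-MYCN/Casp2-/-* tumors, so reads of the gene remained after its disruption and the groups overlapped (log2 fold change -0.79, SE 0.245, FDR 0.101). In the lymphomas *Casp2* was lower in every *EμMyc/Casp2-/-* tumor (log2 fold change -1.35, FDR 0.000400; quasi-likelihood FDR 0.0536).

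In the neuroblastomas, 2 of the 9 genes other than *Slc6a4* fell without *Casp2* (*Gch1* and *Cyb561*) and 1 rose (*Slc18a1*). Over all genes tested, 0.625% were called lower and 0.188% higher, 0.813% in all. *Slc6a4* also passed the test as lower, in the direction that the filter had fixed, and is left out of the counts here. *Th*, *Slc18a2* and *Slc6a2* had lower means without passing the FDR, and *Ddc*, *Dbh* and *Maoa* differed by less than 2-fold. In 4 of the 9 genes every *Th-MYCN/Casp2-/-* tumor lay below every *Th-MYCN* tumor (*Th*, *Gch1*, *Cyb561* and *Slc18a2*), and in 1, *Slc18a1*, above. Such separation was seen below in 3.68% and above in 2.94% of all genes. The median log2 fold change of the 9 genes was -1.28, against -0.00 over all genes tested. DESeq2 called the same 3 genes (0.78% of all genes were called). With the quasi-likelihood test of edgeR none of the 9 passed (lowest FDR 0.0532), where 0.0336% of all genes were called. An unadjusted p below 0.05 was seen in 6 of the 9 by either edgeR test, against 7.78% of all genes by the likelihood ratio and 6.77% by the quasi-likelihood test.

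**Figure D1:**
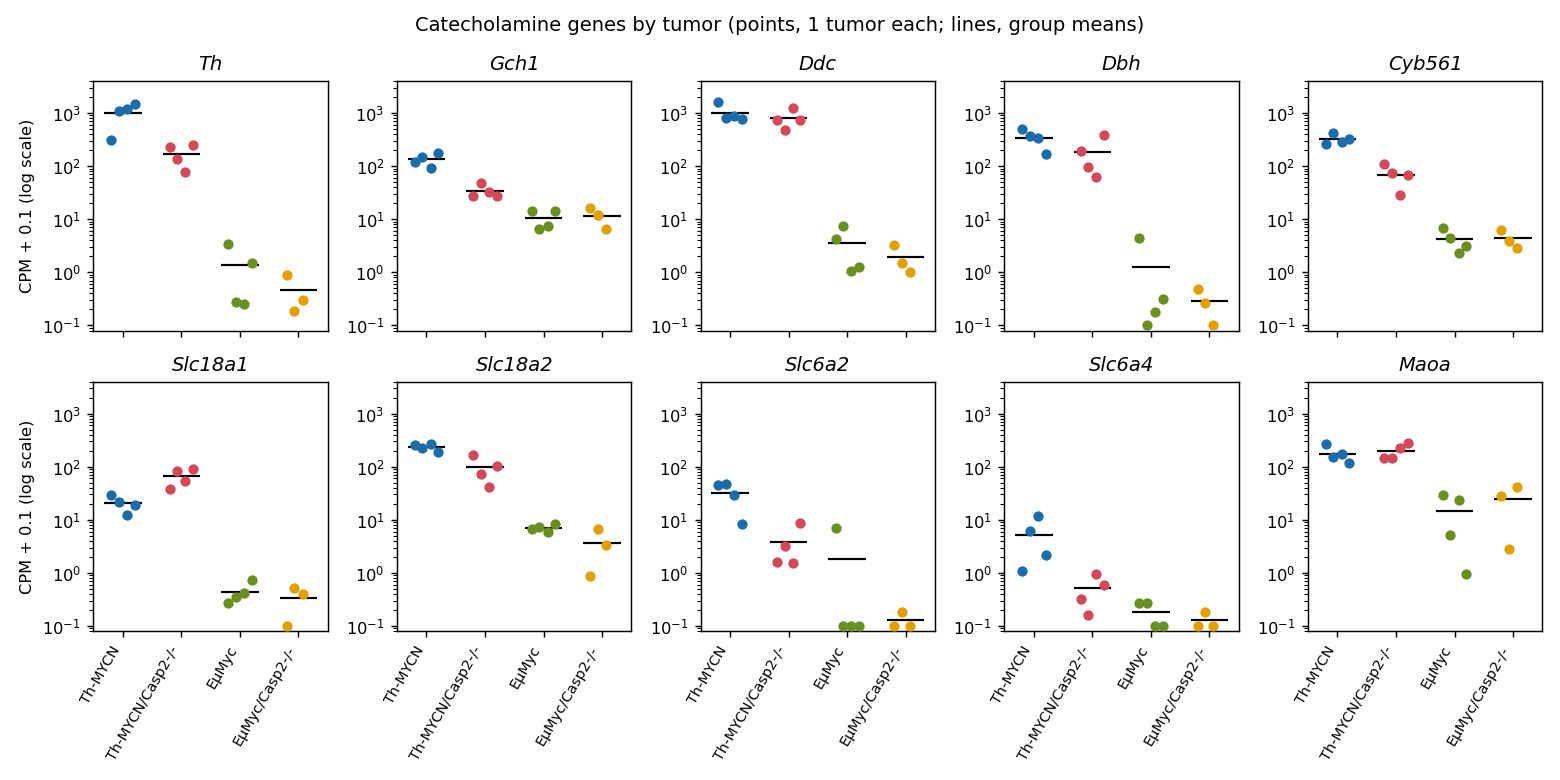
Level of each of the 10 genes (CPM plus 0.1, log scale) in each tumor, with points for tumors and lines for group means, in 4 *Th-MYCN*, 4 *Th-MYCN/Casp2-/-*, 4 *EμMyc* and 3 *EμMyc/Casp2-/-* tumors. The red points (*Th-MYCN/Casp2-/-*) lie wholly below the blue ones (*Th-MYCN*) for *Th*, *Gch1*, *Cyb561*, *Slc18a2* and *Slc6a4* and wholly above them for *Slc18a1*.

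The first step of the pathway is set by *Th* (chr7:142892752-142931128, minus strand, GRCm38) and by *Gch1* (chr14:47153895-47189413, minus strand), whose product, GTP cyclohydrolase 1, makes the first and limiting step toward tetrahydrobiopterin. The promoter sequence of the transgene itself was not examined. Shown here from the mouse genome are the 250 bases before a RefSeq start of each gene (GRCm38.p6, chr7:142899996-142900245 and chr14:47189414-47189663, both minus strand). They were chosen because a *Th* promoter drives the transgene and because *Gch1* was called. They are printed 5′ to 3′, with capitals for TGACGTCA (the cAMP response element), TGACG (its core, which also lies inside the whole element) and CCAAT (the CCAAT box), searched on both strands.
*Th*: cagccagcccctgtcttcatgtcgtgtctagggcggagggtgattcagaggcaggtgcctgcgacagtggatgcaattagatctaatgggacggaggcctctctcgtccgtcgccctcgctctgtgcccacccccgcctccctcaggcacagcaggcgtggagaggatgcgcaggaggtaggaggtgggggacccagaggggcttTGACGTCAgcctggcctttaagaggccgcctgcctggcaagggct
*Gch1*: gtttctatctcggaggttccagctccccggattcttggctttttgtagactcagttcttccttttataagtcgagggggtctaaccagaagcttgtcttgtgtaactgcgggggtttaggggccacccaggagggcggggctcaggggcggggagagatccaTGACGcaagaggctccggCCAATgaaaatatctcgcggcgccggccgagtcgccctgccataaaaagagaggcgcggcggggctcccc
The whole cAMP response element was found 45 bases before the *Th* start and in 1.55% of 32851 windows of the same length. *Gch1* held the core 88 bases and a CCAAT box 70 bases before its start, which 17.8% and 33.8% of windows hold. Of the 7 genes with a window in the RefSeq table, 5 held the core (*Th*, *Gch1*, *Dbh*, *Maoa* and *Slc6a4*), 3 a CCAAT box (*Gch1*, *Ddc* and *Dbh*) and 1, *Slc18a2*, the GATA motif AGATAA, which was in 9.99% of windows. The CCAAT box of *Ddc* was in the window chr11:11890409-11890658, and its other window, chr11:11898145-11898394, held none of these motifs.

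*Th* was at 314, 1075, 1175 and 1447 CPM in the *Th-MYCN* tumors and at 227, 135, 75.9 and 246 CPM in the *Th-MYCN/Casp2-/-* tumors. Every *Casp2-/-* tumor was below every wild type tumor, and MYCN175, the *Th-MYCN* tumor with the latest onset, lay nearest to them. The means were 1002 ± 485 and 171 ± 79.9 CPM (SD, n = 4 each), and the difference, -2.55 on the log2 scale (SE 0.693), did not pass (FDR 0.0546; quasi-likelihood FDR 0.220). Without MYCN175 it did (log2 fold change -2.84, FDR 0.0114), and also with only the neuroblastomas fitted (-2.54, FDR 8.66e-05). With onset age in the model the fold change was -2.13 and the FDR 0.190. In tumor tissue, fewer cells expressing a gene and less RNA of it per cell cannot be told apart. Reads were mapped to the mouse genome, and transgene and endogenous copies are not separated in those assigned to *Mycn*. How far transgene reads enter this count was not tested, so it is no measure of the transgene. Reads assigned to *Mycn* were at 343, 419, 430 and 408 CPM in *Th-MYCN* and at 399, 296, 230 and 421 CPM in *Th-MYCN/Casp2-/-* tumors. These ranges overlapped (log2 fold change -0.25, SE 0.291, FDR 1).

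*Gch1* was at 120, 146, 93.6 and 173 CPM against 27.2, 47.0, 32.1 and 27.5 CPM. The groups were clearly apart, with the lowest *Th-MYCN* tumor near 2-fold above the highest *Casp2-/-* tumor. *Gch1* fell by 1.99 on the log2 scale (SE 0.338, FDR 3.06e-05; quasi-likelihood FDR 0.0532), ranked 6 of 14880 genes by likelihood ratio p, and was called with each neuroblastoma left out in turn. Of 7 other genes that make, recycle or bind tetrahydrobiopterin, all were tested, none was called, and 7 had a lower mean. The one with the smallest p was *Gchfr*, the feedback regulator of GTP cyclohydrolase 1, at 0.733, 2.18, 2.48 and 1.91 CPM against 0.288, 0, 0.193 and 0.812 CPM (log2 fold change -2.48, FDR 0.110). Among the neuroblastomas *Gchfr* exceeded 1 CPM only in *Th-MYCN* tumors, so with only the neuroblastomas fitted the filter fixed its direction. *Qdpr*, which recycles the cofactor, had means of 149 and 139 CPM (log2 fold change -0.10, FDR 1).

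*Ddc* (chr11:11814101-11898144, minus strand), the decarboxylase shared by dopamine and serotonin synthesis, was at 1593, 821, 860 and 771 CPM against 741, 478, 1236 and 746 CPM. MYCN175 was highest and the other *Th-MYCN* tumors lay within the *Casp2-/-* range (log2 fold change -0.34, SE 0.509, FDR 1). *Th* and *Ddc* levels were thus not in one proportion: per kilobase of exon, *Th* over *Ddc* was 0.371 in MYCN175 but 2.47, 2.58 and 3.54 in the other *Th-MYCN* tumors, and 0.580, 0.534, 0.116 and 0.622 in the *Casp2-/-* tumors. The ratio in MYCN175 was inside the *Casp2-/-* range.

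*Dbh* (chr2:27165233-27183200, plus strand), which turns dopamine into noradrenaline, was at 493, 370, 341 and 171 CPM against 196, 97.7, 61.8 and 385 CPM. MYCN391 and MYCNC2ko180 crossed over, and the difference was within the spread between tumors (log2 fold change -0.89, SE 0.963, FDR 1). *Cyb561* (chr11:105933702-105953336, minus strand) encodes the granule membrane cytochrome that renews the ascorbate used by dopamine beta-hydroxylase. Its levels were 265, 414, 283 and 329 CPM against 108, 72.7, 28.8 and 67.8 CPM, with no overlap and more than 2-fold between the nearest tumors. *Cyb561* fell by 2.22 on the log2 scale (SE 0.372, FDR 3.06e-05; quasi-likelihood FDR 0.0532), ranked 5 of 14880 genes, and was called with each neuroblastoma left out in turn. The 3 other tested genes of the cytochrome b561 family, which act in other membranes, were not called and had log2 fold changes of -0.15 to 0.31 (*Cybasc3* 0.31, FDR 0.988). Of 5 genes for other monoamines or adrenaline, 3 were tested and none was called. *Pnmt*, which makes adrenaline from noradrenaline, was at 0.305, 3.99, 11.9 and 2.22 CPM against 0.288, 0.193, 0 and 8.69 CPM, and *Tph1* was at 0.124 CPM or less in every neuroblastoma. *Tph2* had the smallest p of its list (log2 fold change -0.40, FDR 1).

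**Figure D2:**
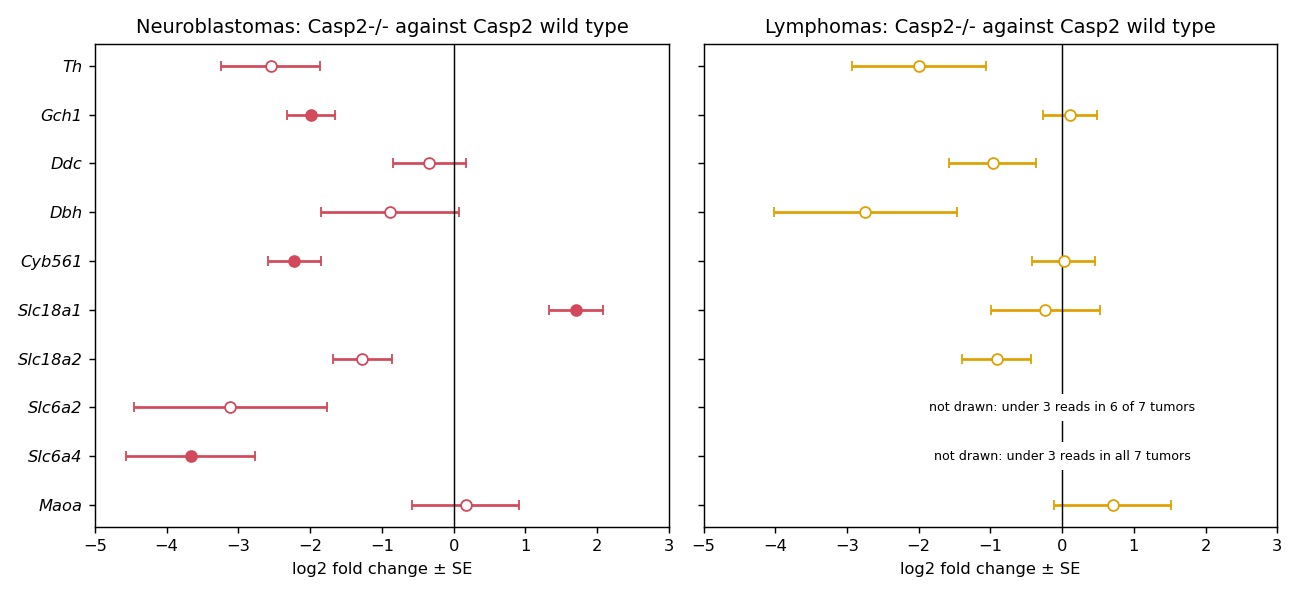
Log2 fold change of each gene without *Casp2* (points, edgeR estimates; bars, 1 SE) in the neuroblastomas (4 against 4) and lymphomas (3 against 4), filled where called by the likelihood ratio test. *Gch1*, *Cyb561* and *Slc6a4* are filled on the left side of 0 and *Slc18a1* on the right side in the neuroblastomas, and no point is filled in the lymphomas, where *Slc6a2* and *Slc6a4* are not drawn for few reads.

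Monoamines are loaded into vesicles by VMAT1, from *Slc18a1* (chr8:69037711-69089235, minus strand), known chiefly from chromaffin and other endocrine cells, and by VMAT2, from *Slc18a2* (chr19:59260896-59296012, plus strand), known from neurons. *Slc18a1* was at 28.8, 21.6, 12.2 and 18.5 CPM against 37.2, 83.6, 54.7 and 89.7 CPM. Every *Casp2-/-* tumor was above every wild type tumor, with MYCNC2ko118 nearest to them. *Slc18a1* rose by a log2 fold change of 1.71 (SE 0.376, FDR 0.00392; quasi-likelihood FDR 0.174) and stood 7th by p among genes with higher levels. The call was lost without MYCN391 (1.66, FDR 0.0696) or without MYCNC2ko144 (1.58, FDR 0.0543).

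*Slc18a2* moved the other way in its values, at 251, 227, 271 and 188 CPM against 167, 73.3, 41.2 and 105 CPM. The groups did not overlap, though MYCN391 and MYCNC2ko118 were close (log2 fold change -1.28, SE 0.413, FDR 0.137; quasi-likelihood FDR 0.396). Without MYCNC2ko118 the gene passed (-1.67, FDR 0.0241), and also with only the neuroblastomas fitted (-1.27, FDR 0.0225). Per kilobase of exon, *Slc18a1* made up 10.0%, 8.44%, 4.17% and 8.71% of the 2 transporters' summed level in the *Th-MYCN* tumors and 17.7%, 52.5%, 56.2% and 45.3% in the *Th-MYCN/Casp2-/-* tumors. *Slc18a1* was thus the lesser transcript in all *Th-MYCN* tumors and the greater one in MYCNC2ko144 and MYCNC2ko176. The 9 tested genes of the dense core granule, in which these transporters sit, included none called. The summed level of all 10 on the list was 1618 to 2012 CPM in *Th-MYCN* and 1231 to 1741 CPM in *Th-MYCN/Casp2-/-* tumors. *Chgb*, a granin of the granule core, had the smallest p (578, 545, 262 and 579 against 350, 257, 113 and 69.9 CPM; log2 fold change -1.31, FDR 0.189). The vesicular acetylcholine transporter *Slc18a3*, a relative of the VMAT genes, was at 38.1, 0.436, 0.462 and 1.17 CPM against 11.2, 7.77, 106 and 1.30 CPM (log2 fold change 1.65, FDR 0.981), and *Ache*, which breaks down acetylcholine, had the smallest p of the 2 cholinergic genes tested (1.16, FDR 0.922). *Slc18a3* was thus high in 1 tumor of each genotype, MYCN175 and MYCNC2ko176.

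**Figure D3:**
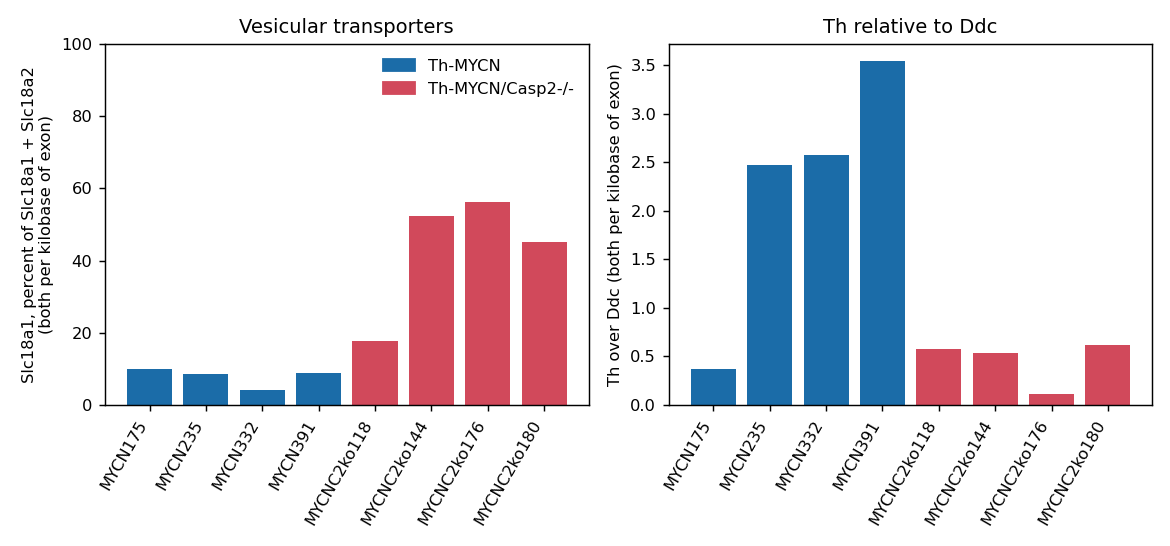
Left, *Slc18a1* as percent of *Slc18a1* plus *Slc18a2*; right, *Th* over *Ddc*, all per kilobase of exon, with 1 bar per neuroblastoma. *Slc18a1* makes up 4.17% to 10.0% in *Th-MYCN* and 17.7% to 56.2% in *Th-MYCN/Casp2-/-* tumors, and *Th* exceeds *Ddc* only in MYCN235, MYCN332 and MYCN391.

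Of the reuptake transporters, *Slc6a2* (chr8:92960079-93001667, plus strand) encodes that of noradrenaline. It was at 44.5, 47.0, 28.9 and 8.09 CPM against 1.51, 3.15, 1.45 and 8.69 CPM. MYCN391 and MYCNC2ko180 had near equal levels between the high and the low tumors, and the difference did not pass (log2 fold change -3.11, SE 1.35, FDR 0.538). *Slc6a4* (chr11:76998603-77032340, plus strand), the serotonin transporter, had 16, 84, 199 and 34 reads in the *Th-MYCN* tumors and 3, 1, 9 and 6 reads in the *Casp2-/-* tumors. These correspond to 0.977 to 11.5 and to 0.0643 to 0.868 CPM, the lower group near the level of 3 reads. The log2 fold change was -3.66 (SE 0.900, FDR 0.0299; quasi-likelihood FDR 0.224), of which the filter had fixed the direction. The call was lost without MYCNC2ko118 (-3.45, FDR 0.171), MYCNC2ko144 (-3.29, FDR 0.155) or MYCNC2ko180 (-3.72, FDR 0.0949), with onset age in the model (-2.79, FDR 0.489) and with sex in the model (-3.67, FDR 0.0602). Without MYCN235, MYCN332 or MYCN391 the gene was under the count filter. Of 5 other uptake genes only *Slc29a4*, the plasma membrane monoamine transporter, was tested. It was at 137, 123, 147 and 123 CPM against 164, 173, 148 and 180 CPM, every *Casp2-/-* tumor above every *Th-MYCN* tumor by a small amount (log2 fold change 0.33, FDR 1). The dopamine transporter *Slc6a3* was at 0.193 CPM or less in every neuroblastoma.

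*Maoa* (chrX:16619698-16687818, plus strand) encodes the mitochondrial oxidase that degrades noradrenaline and serotonin. Its levels were 263, 155, 173 and 117 CPM against 144, 146, 221 and 283 CPM, so the groups overlapped throughout (log2 fold change 0.17, SE 0.751, FDR 1). The 6 tested genes of other breakdown enzymes included none called. *Aldh1a1*, an aldehyde dehydrogenase acting after monoamine oxidase, had the smallest p (6.05, 1.67, 3.06 and 1.24 against 11.6, 10.1, 10.9 and 5.12 CPM; log2 fold change 1.64, FDR 0.165). Beyond the enzymes, none of the 7 tested catecholamine receptor genes was called. The summed level of all 14 on the list was 60.7 to 108 CPM in *Th-MYCN* and 12.8 to 44.7 CPM in *Th-MYCN/Casp2-/-* tumors. *Adra2c*, an alpha-2 receptor, was at 34.1, 95.7, 68.6 and 73.2 against 4.83, 16.7, 6.85 and 29.2 CPM (log2 fold change -2.24, SE 1.30, FDR 0.819). It was called with only the neuroblastomas fitted, as was *Gchfr*, whose direction the filter had fixed in that fit. *Drd2*, the D2 dopamine receptor, had the smallest p of that list (19.1, 2.18, 1.90 and 2.10 against 1.44, 0.964, 0.675 and 1.71 CPM; -2.39, FDR 0.232). In all, none of the 38 related genes tested, on 8 lists of 55 genes, was called by the likelihood ratio test, the quasi-likelihood test or DESeq2, against 0.813% of all genes by the first, 0.0336% by the second and 0.78% by DESeq2. By unadjusted p below 0.05, 8 of the 38 passed the likelihood ratio test and 6 the quasi-likelihood test, against 7.78% and 6.77% of all genes. The 38 include *Gchfr*, which exceeded 1 CPM in no *Casp2-/-* neuroblastoma.

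**Figure D4:**
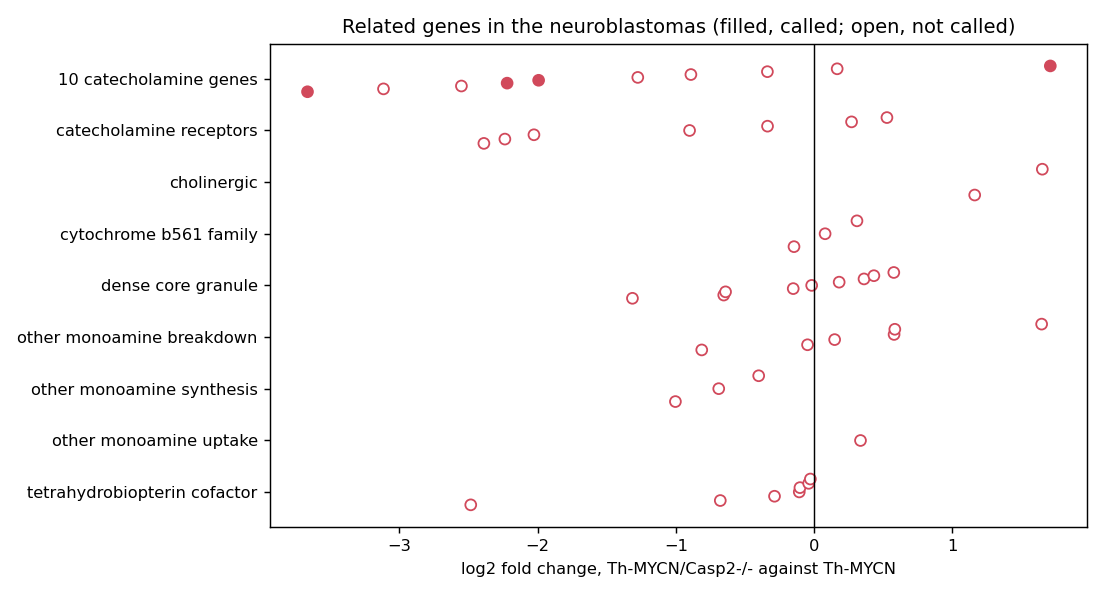
Log2 fold change without *Casp2* in the neuroblastomas for the 10 catecholamine genes (top row) and for the tested genes of 8 related lists, 1 point per gene, filled where called. The 4 filled points are all in the top row, and the related genes lie between -2.48 and 1.65.

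Levels of different genes were compared per kilobase of exon (CPM per kilobase, union of exons). In *Th-MYCN* tumors *Th* was highest (424 ± 205, SD, n = 4), then *Ddc* (227 ± 87.3), *Dbh* (128 ± 49.4), *Cyb561* (88.3 ± 18.2), *Slc18a2* (44.8 ± 6.80), *Maoa* (42.5 ± 14.8), *Gch1* (21.3 ± 5.45), *Slc6a2* (5.10 ± 2.85), *Slc18a1* (3.76 ± 1.28) and *Slc6a4* (1.14 ± 1.05). Ranges of neighbours in this order overlapped except between *Cyb561* and *Slc18a2*, *Maoa* and *Gch1*, and *Gch1* and *Slc6a2*. In *Th-MYCN/Casp2-/-* tumors *Ddc* (179 ± 70.9) was above *Th* (72.4 ± 33.8) with no overlap, and *Slc18a1* (12.3 ± 4.57) stood above *Gch1* (5.35 ± 1.49), with overlapping ranges. Of 13439 tested genes with a length, *Th* ranked 31st by mean level in *Th-MYCN* and 567th in *Th-MYCN/Casp2-/-* tumors, while *Ddc* ranked 79th and 129th. *Cyb561* went from rank 395 to 3051 and *Gch1* from 2689 to 7272.

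**Figure D5:**
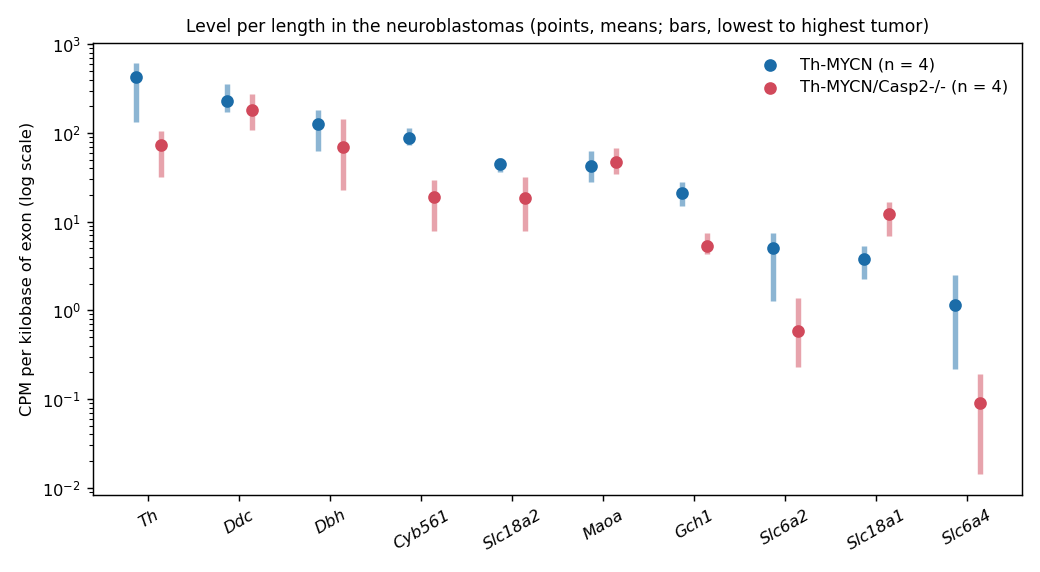
Mean level per kilobase of exon (points, log scale) and the lowest to highest tumor (bars) for each gene in 4 *Th-MYCN* and 4 *Th-MYCN/Casp2-/-* neuroblastomas, ordered by the *Th-MYCN* mean. The 2 genotypes' bars are apart for *Th*, *Cyb561*, *Slc18a2*, *Gch1*, *Slc18a1* and *Slc6a4*.

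The lowest tumor was not the same for all genes. MYCNC2ko176, the tumor with the latest onset, was lowest of the 8 neuroblastomas for 5 genes (*Th*, *Dbh*, *Slc18a2*, *Cyb561* and *Slc6a2*), yet it had the second highest *Ddc* level of all 8. Without MYCNC2ko176 the log2 fold changes of these 5 genes were -2.30, -0.59, -1.01, -1.95 and -2.84. With it they were -2.55, -0.89, -1.28, -2.22 and -3.11. MYCN175 was highest among *Th-MYCN* tumors for *Ddc*, *Dbh*, *Slc18a1* and *Maoa* and lowest among them for *Th*, *Cyb561* and *Slc6a4*. Endothelial markers moved with genotype: their summed level (5 genes, none at 0 in any neuroblastoma) was 46.3 to 72.3 CPM in *Th-MYCN* and 18.8 to 30.9 CPM in *Th-MYCN/Casp2-/-* tumors. *Pecam1* and *Kdr* were called lower, and 0 of the 5 by the quasi-likelihood test. The part of these endothelial markers in the results above was not tested. Summed Schwann cell markers were 34.4 to 76.0 against 63.1 to 95.1 CPM, and *Gata2*, one of the neuroblast markers and a sympathetic transcription factor, was called lower (log2 fold change -1.44, FDR 4.96e-05; quasi-likelihood FDR 0.0812).

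The tested genes with the most similar profile over the 8 neuroblastomas were found as the smallest root mean square difference of mean-centred log2 CPM, a description with no test. A shared order of tumors or direction of call follows largely from this choice. For *Th* they included *Gldn* (0.38) and *Myh3* (0.43), against a spread of *Th* itself of 1.47, and both were called lower. For *Gch1* they were *Gm11428* (0.37), *1700040L02Rik* (0.38) and *Gata2* (0.39), against 1.05. *1700040L02Rik* was at only 0 to 0.944 CPM in the neuroblastomas. *Gata2* was at 266, 299, 176 and 343 CPM against 103, 101, 90.8 and 105 CPM, which followed *Gch1* in having MYCN391 highest and MYCN332 lowest among *Th-MYCN* tumors. For *Slc18a1* they were *Gm239* (0.37), *Kcna5* (0.38) and *Rnd3* (0.39), none of them called, against 0.97. For *Slc6a4* the nearest were *Cidea* (0.75), *Faim2* (0.77) and *Mir431* (0.83), against 1.82.

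In the lymphomas none of the 10 genes was called, by the likelihood ratio test, the quasi-likelihood test or DESeq2, where 1.44%, 0.141% and 1.36% of all genes were called. By unadjusted p, 3 were below 0.05 with the likelihood ratio test (9.89% of all genes) and 1 with the quasi-likelihood test (8.53%). The 3 were *Th*, *Dbh* and *Slc6a2*, each highest in the *EμMyc* tumor EuMyc614 (38, 50 and 78 reads) and with few reads in the other lymphomas. The 1 was *Slc6a2*, whose fold change is not given below for few reads. The groups of all 10 overlapped, while 3.7% of all genes had groups that did not. Values are given for EuMyc614, EuMyc743b, EuMyc829 and EuMyc835 and then for EuMycC2ko215, EuMycC2ko239 and EuMycC2ko245. *Gch1* was at 14.3, 6.42, 7.24 and 14.4 against 16.4, 11.9 and 6.36 CPM (log2 fold change 0.11, SE 0.379, FDR 0.968). *Cyb561* was at 6.82, 4.36, 2.20 and 3.08 against 6.25, 3.76 and 2.83 CPM (log2 fold change 0.02, SE 0.439, FDR 1). Both genes were thus present at low levels with near equal means. *Maoa* was at 29.8, 5.05, 23.4 and 0.849 against 28.3, 2.67 and 41.3 CPM, so it varied within genotypes more than between them. *Slc18a2* was at 6.47, 7.19, 5.91 and 8.39 against 0.781, 6.68 and 3.23 CPM (log2 fold change -0.91, FDR 0.530).

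*Th* had 38, 2, 2 and 13 reads against 4, 1 and 2 reads in the lymphomas, and *Dbh* had 50, 0, 1 and 2 against 2, 2 and 0 reads. *Slc6a2* had 78 reads in EuMyc614, 1 in EuMycC2ko239 and 0 in the other 5 lymphomas, where a count of 0 allows up to 3 reads, or 0.236 to 0.586 CPM over the lymphomas. EuMyc614 was the highest lymphoma for 5 of the 10 genes and carried nearly all lymphoma reads of the noradrenaline genes *Dbh* and *Slc6a2*. Among the 4 *EμMyc* tumors it also had the highest summed neuroblast markers (14.5 CPM, lowest 7.43) and dense core granule genes (13.4 CPM, lowest 7.40). Among all lymphomas both sums were higher in EuMycC2ko215 (34.0 and 13.5 CPM), and that of the granule genes also in EuMycC2ko239 (17.5 CPM). EuMycC2ko215 and EuMycC2ko239 had 2 *Dbh* reads each. The part of these markers and granule genes in the reads of EuMyc614 was not tested. No fold change is given in lymphomas for *Slc6a2*, which had 1 read or none in 6 of 7, or for *Slc6a4*, which had 2 reads or fewer in each.

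The effect of *Casp2* genotype differed between tumor types for *Gch1* and *Cyb561*, where 0.914% of all genes were called. The lymphoma fold change exceeded the neuroblastoma one by 2.11 on the log2 scale for *Gch1* (SE 0.507, FDR 0.0118; quasi-likelihood FDR 0.283) and by 2.24 for *Cyb561* (SE 0.576, FDR 0.0228; quasi-likelihood FDR 0.318). Single tumors decided these calls. Without MYCN391 or EuMycC2ko215 neither was called. *Gch1* alone was called without EuMyc829, MYCN235, MYCNC2ko144 or MYCNC2ko180, and *Cyb561* alone without MYCNC2ko118. With onset age in the model the count was 0.

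Between the tumor types, which differ in tissue, strain and transgene together, *Ddc*, *Gch1*, *Cyb561*, *Slc18a2* and *Maoa* exceeded 1 CPM in at least 3 lymphomas, so the filter did not fix their direction. These 5 were lower in *EμMyc* than in *Th-MYCN* tumors and called by all 3 tests, where 28.5% (likelihood ratio), 27.8% (quasi-likelihood) and 28.7% (DESeq2) of all genes were called lower. They were also below without overlap, against 32.9% of all genes. *Ddc* was at 3.42 ± 3.02 against 1011 ± 389 CPM (SD, n = 4 each). The differences were smaller for *Maoa* (log2 fold change -3.58, FDR 4.91e-05) and *Gch1* (-3.65, FDR 4.16e-21). The other 5 (*Th*, *Dbh*, *Slc18a1*, *Slc6a2* and *Slc6a4*) exceeded 1 CPM in 0 to 2 lymphomas and passed the filter only through neuroblastomas, so their levels are given as a description. *Th*, for example, was at 1.26 ± 1.49 against 1002 ± 485 CPM. Without *Casp2*, the same 5 genes of the first kind were again called lower in the lymphomas by the likelihood ratio test (27.6% of all genes), the quasi-likelihood test (26.6%) and DESeq2 (27.6%), with no overlap, as in 31.2% of all genes. There *Gch1* differed by -1.55 (SE 0.374, FDR 0.000205), with means of 11.6 ± 5.03 and 33.5 ± 9.33 CPM. These comparisons share their tumors with the genotype comparisons and are no separate evidence on them.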

How the data were processed

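The authors extracted total RNA with Trizol (RNA integrity number above 7 per the labels), enriched poly(A) RNA, and sequenced short single-end reads on a HiSeq instrument. After FastQC, reads were mapped by STAR to the mm10 (GRCm38) genome, and the authors deposited its gene counts without normalization. The annotation release and tool versions are not given in the sources used here. Each deposited count file has columns for either strand and for each strand. Counts of the second strand were taken, as in the study. They made up 48.8% to 49.3% of strand-split reads, so the libraries carry no strand information, the other strand's reads do not enter, and reads of a gene and of an antisense partner cannot be told apart. *Cyb561* and *Slc18a2* share 377 and 111 exon bases with unlisted genes. Rows that name no gene held 66.4% to 71.8% of this column and were left out.

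Counts were tested in edgeR 4.0.16 (R 4.3.3) with TMM factors, 1 model of 4 group means over 15 tumors, the likelihood ratio test and Benjamini-Hochberg adjustment over 14880 genes above 1 CPM in at least 3 tumors. The study reports likelihood ratio statistics, so the quasi-likelihood test stands beside it as an alternative, with DESeq2 1.42.0. The common dispersion was 0.156. CPM are per TMM-scaled library of the genes tested, and calls use FDR below 0.05 and a fold above 2. Standard errors are from the fitted model. The scripts were tested on simulated counts. Groups come from the labels, with 1 tumor per mouse, and tumors of a group differed by more than counting noise (chi-square per degree of freedom 16.2 to 76.0 over 21 pairs). A further *EμMyc/Casp2-/-* tumor that the study removed is not analysed here. Gene positions and exon lengths are from GENCODE (GRCm38), by symbol. Promoter windows are from RefSeq. Log2 CPM for profiles used a prior count of 2. The genes, the related lists and the tests were chosen with earlier results of these data known. Named beyond the 10 genes are *Casp2*, for each related list the gene with the smallest likelihood ratio p in neuroblastomas and genes near 0 on which the list's role depends, the 3 nearest profiles of 4 genes, and markers. Some genes that this rule names are not reported here. *Qdpr*, *Adra2c*, *Pnmt*, *Slc18a3*, *Mycn* and, in lymphomas, *Cybasc3* and *Scg3* were named after their values were seen. Alternatives were the other tests, RLE factors, no filter, reads of either strand, only the groups compared, sex or onset as covariate, and each tumor left out. Floors cover counting error only, while standard errors also hold the fitted spread between tumors.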

Additional observations from a re-analysis of the deposited data

Results flagged for a closer look

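In groups of 4 tumors, 1 tumor far from the other 3 was looked for by Dixon's ratio in 30 sets (10 genes in 3 groups), and 3 sets had one. In independent sets of normally distributed values about 1 in 20 would have one. These sets share tumors and some hold few reads, so their count cannot be set against that share. *Ddc* was at 1593 CPM in MYCN175 against 771 to 860 CPM in the other *Th-MYCN* tumors. *Dbh* was at 4.37 CPM (50 reads) in EuMyc614 against 0 to 0.212 CPM in the other *EμMyc* tumors. *Slc6a2* was at 6.82 CPM (78 reads) in EuMyc614 against 0 reads in each of the other 3. The source of these reads was not tested.

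The effect of *Casp2* genotype in lymphomas minus that in neuroblastomas passed the likelihood ratio test of the difference (edgeR) for *Gch1* (2.11 on the log2 scale, FDR 0.0118) and *Cyb561* (2.24, FDR 0.0228). Neither passed the quasi-likelihood test.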

How the results depend on the processing

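No paired analysis was possible because the labels give no pairing, the replicate numbers being in accession order. Correlations of the 9 other genes with *Th* over the neuroblastomas, planned with 2 alternatives, are not given, because *Th* levels part the genotypes (75.9 to 246 against 314 to 1447 CPM) and each genotype has 4 tumors. The count of genes called without *Casp2* in the neuroblastomas, 4 with *Slc6a4* included, became 0 with the quasi-likelihood test and 7 with only the neuroblastomas fitted (adding *Th*, *Slc18a2* and *Slc6a2*), was 3 with sex or onset as covariate, and ran from 2 to 5 with 1 tumor left out, 2 without MYCN391 or MYCNC2ko144. *Gch1* and *Cyb561* were called in all 8 fits with a neuroblastoma left out and in 7 of 8 other settings, the exception being the quasi-likelihood test. The count of genotype effects that differed between tumor types, 2, became 0 with the quasi-likelihood test, 1 (*Gch1*) with reads of either strand, 0 with onset as covariate and 0 to 2 with 1 tumor left out. The count among related genes, 0, became 2 with only the neuroblastomas fitted (*Adra2c* and *Gchfr*) and 0 to 3 with 1 tumor left out (3 without MYCN175: *Aldh1a1*, *Gchfr* and *Slc18a3*; 2 without MYCNC2ko180: *Gchfr* and *Pnmt*). With only the neuroblastomas fitted, *Gchfr* passed the count filter through *Th-MYCN* tumors alone, which fixed its direction. The *Casp2* difference in lymphomas was -1.35 with a quasi-likelihood FDR of 0.0536. Directions turned only where fold changes were not called. With 1 tumor left out, the log2 fold change of *Maoa* in the neuroblastomas ran from -0.038 (without MYCNC2ko180) to 0.43. In the lymphomas, *Dbh* ran from -3.62 to 0.74, highest without EuMyc614, which leaves 2 reads or fewer in each tumor. *Slc6a2* and *Slc6a4* have no fold change there and are left out. *Gch1* ran there from -0.20 to 0.40, below 0 without EuMyc743b, EuMyc829 or EuMycC2ko215. *Slc18a1* ran from -0.76 to 0.18, above 0 without EuMyc835 or EuMycC2ko215, and was 0.073 with age at onset as covariate. *Cyb561* ran from -0.31 to 0.40, below 0 without EuMyc829, EuMyc835 or EuMycC2ko215, and was -0.27 with reads of either strand and -0.43 with age at onset as covariate. The causes were not tested. Depth limits *Slc6a4* in both tumor types and *Slc6a2*, *Slc18a1*, *Th* and *Dbh* in the lymphomas, which had few reads.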

Other observations

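Among the related genes in the lymphomas, 1 rose and 1 fell without *Casp2* of 38 tested, where 1.44% of all genes were called. *Cybasc3*, of the cytochrome b561 family, fell by 1.41 on the log2 scale (SE 0.304, edgeR likelihood ratio FDR 0.00218, not called by the quasi-likelihood test), with means of 194 ± 67.8 CPM in 4 *EμMyc* and 72.8 ± 25.1 CPM in 3 *EμMyc/Casp2-/-* tumors and no overlap. Its effect differed between the tumor types (-1.72, FDR 0.0138). *Scg3*, a secretogranin, rose by a log2 fold change of 1.89 (SE 0.483, FDR 0.00628, quasi-likelihood FDR 0.0255) at a low level, 0.348 ± 0.106 against 1.35 ± 0.385 CPM. Its effect differed by 2.04 (FDR 0.0130, quasi-likelihood FDR 0.0613). Of 5 T cell markers 3 were also called higher in *EμMyc/Casp2-/-* tumors, and 0 by the quasi-likelihood test. Their summed level was 801, 106 and 34.5 CPM in EuMycC2ko215, EuMycC2ko239 and EuMycC2ko245, against 5.60 to 51.5 CPM in *EμMyc* tumors. EuMycC2ko245 thus lay within the *EμMyc* range, and EuMycC2ko215, the tumor with the fewest reads, set the upper end. The part of these markers in the values above was not tested. The receptor gene *Adra2c*, looked at after its values were seen, had 80 reads in EuMyc614, 0 in the other *EμMyc* tumors and 1 in EuMycC2ko215, so its lymphoma reads were nearly all in the same tumor as those of *Dbh* and *Slc6a2*.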
